A study of Homo sapiens with 8 samples.

Results

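The genes of serine and asparagine synthesis, of the mitochondrial one-carbon steps that use serine, and of amino acid uptake were followed in A549 cells, an established line of human lung adenocarcinoma. The group was set by name and holds 10 genes (ASNS, PHGDH, PSAT1, PSPH, SHMT2, MTHFD2, SLC7A11, SLC7A5, SLC3A2 and SLC7A1), found through their Ensembl identifiers among the 60664 genes of the count table. Of the 10, 9 had counts, and all 9 passed the expression filter that left 15066 genes for testing. ASNS had 0 counts in every library and was therefore not measured. The study made 8 RNA libraries in 4 groups of 2. Untreated cells received neither agent. The IFN-γ group received interferon gamma at 20 ng (20 ng/mL in the methods of the study) for 48 h. The AX-0085 group received 0.5 μM AX-0085, a kinase inhibitor candidate selected for blocking PD-L1 induction, for the last 24 h of that time. The last group received IFN-γ for 24 h and then AX-0085 as well for another 24 h. All groups are a single cell line in culture, so every value refers to that line. The study asked what the inhibitor does to the response to IFN-γ.

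Serine is made from the glycolytic intermediate 3-phosphoglycerate by PHGDH, PSAT1 and PSPH, acting in that order. SHMT2 then splits serine into glycine and a one-carbon unit inside the mitochondrion, and MTHFD2 oxidizes that unit on its way to formate and nucleotides. ASNS makes asparagine from aspartate and glutamine. At the plasma membrane SLC7A5 (LAT1) carries large neutral amino acids and SLC7A11 (xCT) exchanges cystine for glutamate, both paired with the heavy chain SLC3A2, while SLC7A1 (CAT1) brings in arginine and lysine. Many of these genes are known targets of ATF4, the transcription factor that is translated when amino acids run short, and lung cancer lines differ widely in how much PHGDH they carry.

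ATF4, in complex with C/EBP proteins, is known to act on an element with the core letters TGATGNAA, where N is any base. This motif was searched on both strands of the RefSeq promoter windows of GRCh38.p14, which run from 250 bases before to 50 bases after a transcript start. It was the only motif searched, and 3.62% of all 35116 windows hold it. There were 10 windows for 7 of the 10 genes, and 3 of these genes held a match, while PHGDH, PSAT1, MTHFD2 and SLC7A5 had none. ASNS and SLC3A2 also had windows at other starts, and those held no match. PSPH, SHMT2 and SLC7A11 had no window. The 3 stretches with a match are shown because they place the matching letters relative to the start of the gene. Capitals mark the match, and each stretch is written 5′ to 3′ on the strand of its gene.
ASNS: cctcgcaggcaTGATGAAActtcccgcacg
SLC3A2: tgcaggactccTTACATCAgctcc
SLC7A1: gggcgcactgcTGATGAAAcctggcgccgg

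The ASNS stretch is chr7:97872458-97872487 on the minus strand, 79 to 50 bases before the start, and its match is on the strand of the gene. It also lies in the first exon of longer annotated ASNS transcripts. The SLC3A2 stretch is chr11:62881725-62881748 on the plus strand, 27 to 50 bases after the start, in a first exon that is coding in some transcripts, and here the match is on the opposite strand. The SLC7A1 stretch is chr13:29595663-29595692 on the minus strand, from 4 bases before to 26 bases after the start, with the match in the untranslated part of the first exon. A match of letters is a description and not a bound site, and the absence of one says only that these letters are not in this window.

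The libraries held between 20672828 and 29978251 counts each. Levels are given as CPM, counts relative to the scaled library size. The smallest level taken as detectable was 3 counts, or 0.100 to 0.145 CPM at this depth, a limit that covers counting error only. Replicate libraries differed by more than sampling noise in each group, the chi-square divided by its degrees of freedom ranging from 8.55 to 27.7, and were kept as separate replicates. Since nothing in the labels says that they were separate cultures, p-values measure only the spread between these libraries, which may be technical. The fit behind the p-values shares that spread in part between genes, so it is not the spread of a single gene alone. GBP1 and CD274, which report IFN-γ signaling, were both higher with IFN-γ and both fell again when AX-0085 was added, so the levels matched the treatment labels. Of 9 markers of the A549 line, 9 had counts, and their summed level lay between 22760 and 23320 CPM in the untreated pair of libraries, 21320 and 22280 under AX-0085, 15030 and 15790 under IFN-γ and 18010 and 18160 under the combination. Of 9 markers of leukocytes, endothelial cells and fibroblasts, 2, CD3E among them, were at 0 in all 8 libraries. The summed level of that list was 14.7 to 17.3 CPM in untreated cells, 13.6 to 15.3 under AX-0085, 3.14 to 4.54 under IFN-γ and 10.3 to 12.1 under the combination. Most of it came from COL1A1, a fibroblast collagen gene, and CD14, a monocyte marker, with 8.83 and 10.6 CPM and 5.23 and 5.99 CPM in untreated cells against 4.33 and 2.85 CPM and 0.0528 and 0.161 CPM under IFN-γ. Both were called lower with IFN-γ and higher when AX-0085 was added to it, the level of CD14 under IFN-γ resting on 1 and 4 counts. Mitochondrial genes took 3.55% and 2.72% of the counts in untreated cells, 4.12% and 5.73% under AX-0085, 1.71% and 1.82% under IFN-γ and 2.87% and 3.43% under the combination, so that the IFN-γ pair was the lowest.

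Together the 9 measured genes took 0.482% and 0.508% of all counts in the 2 untreated libraries. AX-0085 libraries gave 0.571% and 0.549%, IFN-γ libraries 0.930% and 0.968%, and those of the combination 1.03% and 1.01%. The groups without and with IFN-γ did not overlap. Over the 8 libraries SLC7A5 had 763859 counts and SLC3A2 362872, and the next gene, PSAT1, had 154674. The summed share therefore mainly follows SLC7A5 and SLC3A2 and does not describe each of the 9 genes. In RNA of whole cultures, a change in the RNA per cell and a change in the proportion of cells that carry it cannot be told apart. On a scale that corrects for gene length (TPM, counts divided by exon length in GENCODE 44 and scaled to a common total), untreated cells held most SLC7A5 at 2016 ± 92.4 TPM (SD, n = 2 as for all values with an SD here), followed by SLC3A2 at 633 ± 48.9 and PSAT1 at 520.4 ± 8.60. SHMT2 stood at 152 ± 3.49 TPM, PSPH at 74.1 ± 0.928 and SLC7A1 at 63.8 ± 2.15. The lowest TPM levels were those of MTHFD2 at 43.0 ± 0.383, PHGDH at 37.0 ± 1.16 and SLC7A11 at 32.0 ± 1.86. The uptake pair SLC7A5 and SLC3A2 thus stood at the top of the order in TPM, and the cystine exchanger that shares the same heavy chain at its foot. The exon length used joins all annotated exons of a gene and was longest for MTHFD2, SLC7A11 and PHGDH. It was 11443, 9645 and 9187 bases for these genes, so their place in the order depends on it. In CPM the lowest of the 9 in untreated cells was PSPH, at a mean of 57.4.

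**Figure D1:**
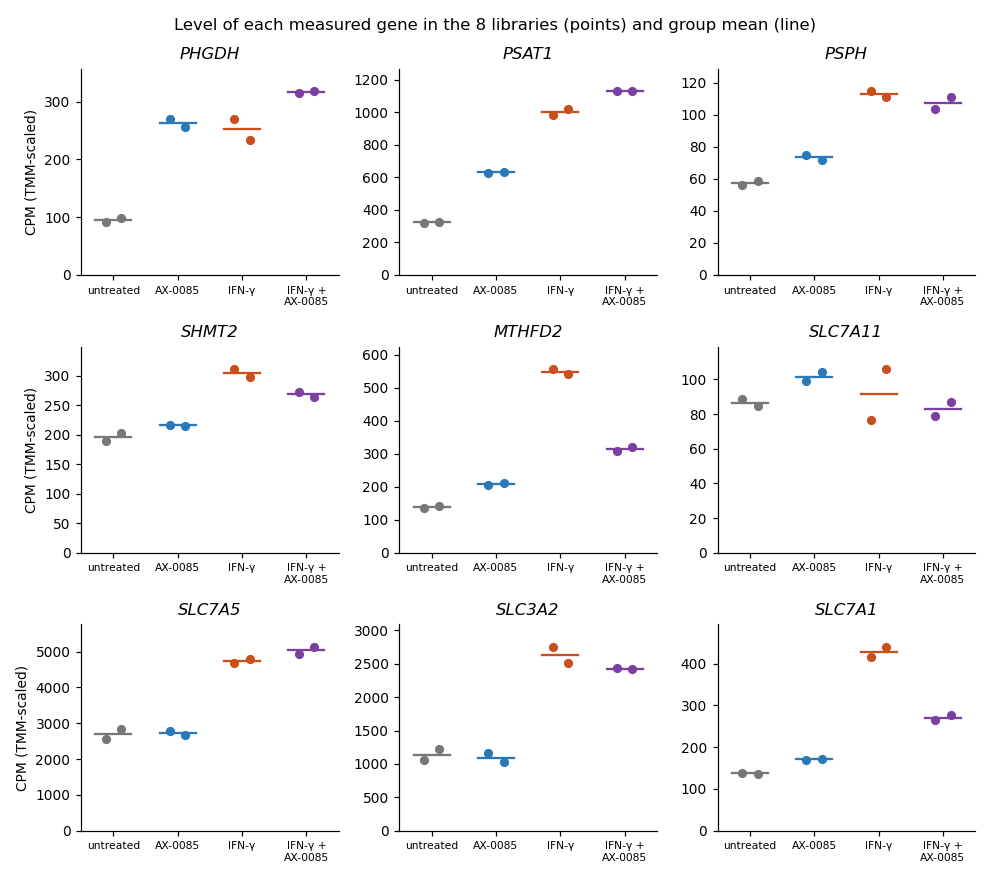
Level of each of the 9 measured genes in the 8 libraries, in CPM scaled with TMM factors (linear axes from 0, a separate axis per gene). Points are single libraries in each treatment group and lines are group means. Both IFN-γ groups lie above both groups without IFN-γ for PSAT1, PSPH, SHMT2, MTHFD2, SLC7A5, SLC3A2 and SLC7A1, while the AX-0085 group reaches the IFN-γ level for PHGDH and the groups mix for SLC7A11.

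PHGDH (ENSG00000092621, chr1:119648411-119744218, plus strand), the first and committed enzyme of serine synthesis, was measured at 91.8 and 99.2 CPM in the untreated pair of libraries, 270.2 and 255 under AX-0085, 269 and 235 under IFN-γ and 315 and 319 under the combination. Either agent alone gave a level well above untreated cells, the libraries of the AX-0085 and IFN-γ groups overlapped, and the cells given both stood highest. PHGDH rose by a log2 change of 1.40 (SE, the standard error, 0.07) with IFN-γ (quasi-likelihood test of edgeR with Benjamini-Hochberg adjustment, adjusted p = 1.872e-09). With AX-0085 alone it rose by 1.46 (SE 0.07, edgeR, adjusted p = 5.26e-09). It was the only one of the 9 genes to pass the threshold of a call with AX-0085 alone, where a call here requires an adjusted p under 0.05 over all genes tested and a change of more than 2-fold.

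PSAT1 (ENSG00000135069, chr9:78297125-78330093, plus strand), the aminotransferase of the second step, stood at 321 and 324 CPM in the untreated pair of libraries, 627 and 633 under AX-0085, 982 and 1019 under IFN-γ and 1133 and 1129 under the combination. All 4 groups were apart, in rising order from untreated through AX-0085 and IFN-γ to both. The log2 fold change was 1.64 (SE 0.06) with IFN-γ (edgeR, adjusted p = 6.849e-11). With AX-0085 alone it was 0.97 (SE 0.06, edgeR, adjusted p = 2.983e-08), just short of 2-fold.

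PSPH (ENSG00000146733, chr7:56011051-56051604, minus strand), the phosphatase that releases serine, had 56.0 and 58.9 CPM in the untreated pair of libraries, 75.0 and 72.0 under AX-0085, 115 and 112 under IFN-γ and 104 and 112 under the combination. The 2 groups with IFN-γ overlapped and stood above the other two. Its log2 fold change with IFN-γ was 0.98 (SE 0.06, edgeR, adjusted p = 1.711e-08), so that the rise passed the test but stood at the 2-fold limit. It lay between 0.86 and 1.05 over the alternative settings, on either side of that limit. With AX-0085 alone PSPH rose by 0.36 (SE 0.06, edgeR, adjusted p = 0.0004091). The changes of the 3 serine enzymes with AX-0085 alone were 1.46, 0.97 and 0.36 in the order of the pathway. With IFN-γ they were 1.40, 1.64 and 0.98 in the same order, without a steady fall.

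SHMT2 (ENSG00000182199, chr12:57229573-57234935, plus strand), the mitochondrial serine hydroxymethyltransferase, was at 190 and 202 CPM in the untreated pair of libraries, 217 and 214 under AX-0085, 312 and 297 under IFN-γ and 273 and 264 under the combination. The 4 groups did not overlap, but the distance between the lowest and the highest mean was 1.55-fold. SHMT2 rose by 0.64 (SE 0.06) on the log2 scale with IFN-γ (edgeR, adjusted p = 4.145e-07), and its change with AX-0085 alone was 0.14 (SE 0.06, edgeR, adjusted p = 0.0614). Of its exon bases 8.38% lie in exons of genes on the opposite strand.

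MTHFD2 (ENSG00000065911, chr2:74186172-74217565, plus strand), the mitochondrial methylenetetrahydrofolate dehydrogenase, had 135 and 141 CPM in the untreated pair of libraries, 206 and 211 under AX-0085, 558 and 540.5 under IFN-γ and 307 and 322 under the combination. The 4 groups were apart, and the level with both agents lay between those with AX-0085 and with IFN-γ. The rise with IFN-γ, at a log2 fold change of 1.99 (SE 0.06, edgeR, adjusted p = 1.024e-11), was the largest among the 9 genes. With AX-0085 alone MTHFD2 rose by 0.59 (SE 0.06, edgeR, adjusted p = 1.992e-06). Exons of genes on the opposite strand share 14.1% of its exon bases, and no such gene had more than 43 counts in a library.

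SLC7A5 (ENSG00000103257, chr16:87830023-87869507, minus strand), the light chain of the large neutral amino acid transporter, was at 2565 and 2826 CPM in the untreated pair of libraries, 2776 and 2665 under AX-0085, 4667 and 4802 under IFN-γ and 4932 and 5141 under the combination. Untreated and AX-0085 libraries overlapped, and all libraries with IFN-γ were higher. With IFN-γ it rose by a log2 change of 0.81 (SE 0.08, edgeR, adjusted p = 6.993e-07), which is under 2-fold. The change with AX-0085 alone was 0.01, with a 95% interval from -0.15 to 0.18 (edgeR, adjusted p = 0.9003).

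SLC3A2 (ENSG00000168003, chr11:62856004-62888880, plus strand), the shared heavy chain, gave 1056 and 1217 CPM in the untreated pair of libraries, 1165 and 1027 under AX-0085, 2757 and 2507 under IFN-γ and 2437 and 2416 under the combination. As for its partner, the groups split by IFN-γ, and untreated and AX-0085 libraries overlapped. SLC3A2 rose by 1.21 (SE 0.09) on the log2 scale with IFN-γ (edgeR, adjusted p = 5.257e-08). With AX-0085 alone its log2 change was -0.05, with a 95% interval from -0.24 to 0.14 (edgeR, adjusted p = 0.6402).

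SLC7A1 (ENSG00000139514, chr13:29509414-29595688, minus strand), the cationic amino acid transporter, stood at 139 and 136 CPM in the untreated pair of libraries, 169 and 171 under AX-0085, 416 and 441 under IFN-γ and 264 and 277 under the combination. The order of the groups and their separation were those of MTHFD2. SLC7A1 rose by a log2 change of 1.64 (SE 0.06) with IFN-γ (edgeR, adjusted p = 4.948e-11). With AX-0085 alone it rose by 0.31 (SE 0.06, edgeR, adjusted p = 0.0004909).

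SLC7A11 (ENSG00000151012, chr4:138164097-138242349, minus strand), the cystine and glutamate exchanger, was at 88.7 and 84.4 CPM in the untreated pair of libraries, 99.1 and 104 under AX-0085, 76.6 and 106 under IFN-γ and 78.8 and 87.0 under the combination. Every group overlapped its neighbour in the order of means, and the IFN-γ replicates alone spanned the whole range of the 8 libraries. The log2 fold change with IFN-γ was 0.08 (SE 0.11), with a 95% interval from -0.16 to 0.33 (edgeR, adjusted p = 0.5346). It was 0.31 without IFN-γ replicate 1 (edgeR, adjusted p = 0.002447) and -0.13 without IFN-γ replicate 2 (edgeR, adjusted p = 0.1677), so that a single library set its direction. Of its exon bases 82.1% lie inside the span of SLC7A11-AS1 on the opposite strand and 8.97% in exons of that gene, which had 3 to 10 counts in a library. SLC7A11 was the only one of the 9 genes whose change with IFN-γ did not pass the adjusted p.

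ASNS (ENSG00000070669, chr7:97851677-97872542, minus strand), asparagine synthetase, had 0 counts in all 8 libraries. In GENCODE 44, 99.8% of its exon bases lie inside ENSG00000284707, a gene on the same strand, and 49.3% lie in exons of that gene. ENSG00000284707 itself had 189 and 125 counts in the untreated pair of libraries, 227 and 228 under AX-0085, 94 and 129 under IFN-γ and 202 and 141 under the combination. Which annotation release was used for counting, and how reads shared by 2 genes were treated, is not given in the sources used here. The zero therefore describes the row of the table, and whether ASNS RNA was present was not tested.

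Against untreated cells, IFN-γ gave calls for 5 of the 9 genes, all higher: PHGDH, PSAT1, MTHFD2, SLC3A2 and SLC7A1. Over all 15066 genes tested, 10.3% were called higher and 17.2% lower in this comparison. The median log2 change was 1.21 over the 9 genes and -0.06 over all genes tested. With the adjusted p alone 8 of the 9 rose, where 68.1% of all genes passed it, 32.1% as higher and 36% as lower. The CPM of the groups did not overlap for 8 of the 9 genes and for 81.1% of all genes, a share close to that of the 9. The summed A549 markers, the summed markers of other cells and the mitochondrial share were all lower with IFN-γ, as given above, and their part in these values was not tested.

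**Figure D2:**
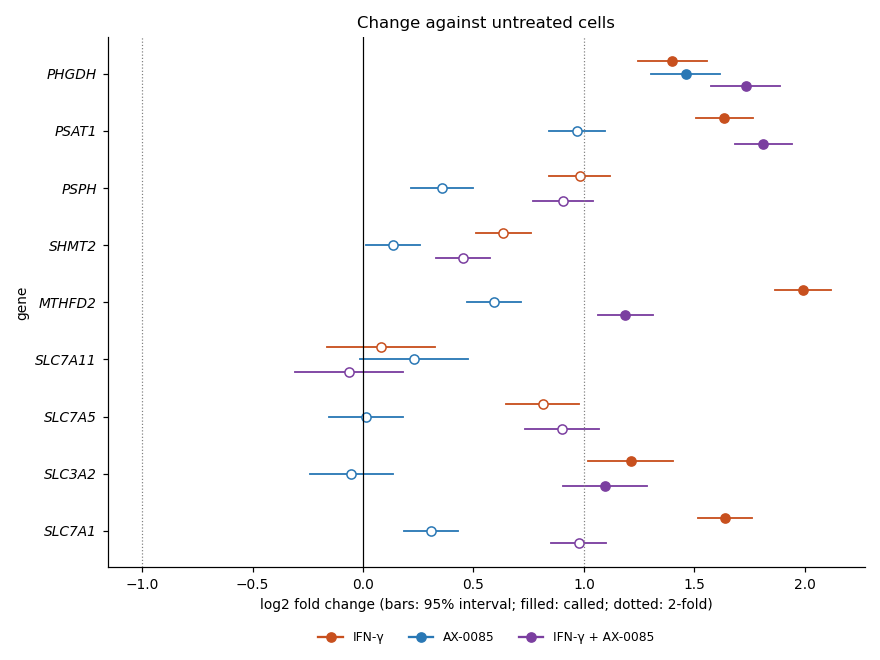
Log2 fold change against untreated cells for the 9 measured genes (rows) with IFN-γ, AX-0085 and both. Bars are 95% intervals from the edgeR fit, filled points passed both thresholds, and dotted lines mark 2-fold. PHGDH has all 3 points filled, MTHFD2 has the highest IFN-γ point at 1.99, and SLC7A5 and SLC3A2 have AX-0085 points at 0.01 and -0.05.

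On addition of AX-0085 to cells already under IFN-γ, none of the 9 genes changed by more than 2-fold against IFN-γ alone, by edgeR or by DESeq2. Over all genes 16.5% were called higher and 8.28% lower. By the adjusted p of edgeR alone 5 of the 9 differed, 2 higher and 3 lower, no larger a share than the 66.5% of all genes that passed it (33.7% higher and 32.8% lower). The same number had an unadjusted p under 0.05, beside 69.2% of all genes. The markers and the mitochondrial share given above were higher with both agents than with IFN-γ alone, and their part was not tested. The median log2 change was -0.12 over the 9 genes and 0.03 over all. MTHFD2 fell by 0.80 (SE 0.06) on the log2 scale (edgeR, adjusted p = 4.283e-08), and SLC7A1 fell by 0.66 (SE 0.06, edgeR, adjusted p = 2.536e-07). Relative to the rise with IFN-γ these falls took back 40.4% of the log2 change of MTHFD2 and 40.5% of that of SLC7A1. SHMT2 fell by 0.18 (edgeR, adjusted p = 0.01227), a difference that no longer passed with scaling by library size alone (adjusted p = 0.3999), with a filter on 10 counts in every library (0.05078) and without replicate 2 of both agents (0.1101).

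PHGDH moved the other way and rose by a further 0.33 on the log2 scale (SE 0.07, edgeR, adjusted p = 0.0009102) when AX-0085 was added. PSAT1 rose by 0.18 (edgeR, adjusted p = 0.01581), but its adjusted p went up to 0.09899 without replicate 1 of both agents and was also over 0.05 with DESeq2 size factors (0.0507), without IFN-γ replicate 1 (0.05749) and without replicate 2 of both agents (0.08961). The log2 changes of PSPH (-0.08, 95% interval -0.21 to 0.06), SLC7A5 (0.09, interval -0.08 to 0.26), SLC3A2 (-0.12, interval -0.31 to 0.07) and SLC7A11 (-0.15, interval -0.39 to 0.10) did not pass the test. With library size alone the change of SLC7A5 was 0.21 (edgeR, adjusted p = 0.01814). Without IFN-γ replicate 1, SLC7A11 had a change of -0.37 (edgeR, adjusted p = 0.0006627). GBP1 and CD274 fell by 7.13 and 3.73 on the log2 scale in the same comparison.

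With AX-0085 alone against untreated cells, 1 of the 9 genes was called, PHGDH, where 6.41% of all genes were called higher and 5.62% lower. The median log2 change was 0.31 over the 9 genes and 0.01 over all. The adjusted p alone was passed by 5 genes, all of them higher (PHGDH, PSAT1, PSPH, MTHFD2 and SLC7A1), where 53.3% of all genes passed it, 26.7% as higher and 26.6% as lower. SLC7A11 had a log2 change of 0.23 (edgeR, adjusted p = 0.1009), and SHMT2 one of 0.14. Each of these 2 genes passed the adjusted p in 4 of the 16 alternative settings.

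Cells given both agents differed from untreated cells by a call in 4 of the 9 genes, all higher, beside 7.51% of all genes called higher and 7.23% lower. The log2 changes were 1.73 for PHGDH, 1.81 for PSAT1, 1.19 for MTHFD2 and 1.09 for SLC3A2. SLC7A1, at 0.98 (SE 0.06, edgeR, adjusted p = 1.357e-08), PSPH at 0.91 and SLC7A5 at 0.90 stood just under 2-fold, and SHMT2 was at 0.45. These 8 genes passed the adjusted p alone, as did 56.9% of all genes, 28.1% as higher and 28.8% as lower. The median was 0.98 over the 9 genes and 0.01 over all. SLC7A11 had a change of -0.06 (95% interval -0.31 to 0.18).

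With AX-0085 present in both arms, the change with IFN-γ was called in 1 of the 9 genes, SLC3A2, where 1.79% of all genes were called higher and 1.73% lower. SLC3A2 rose by 1.15 (SE 0.09) on the log2 scale (edgeR, adjusted p = 1.692e-06), beside 1.21 without the inhibitor. SLC7A5 rose by 0.89 (SE 0.08, edgeR, adjusted p = 3.922e-06), beside 0.81. SLC7A11 had a change of -0.29 (SE 0.11, edgeR, adjusted p = 0.05881), which passed the adjusted p in 5 of the 16 alternative settings. MTHFD2 rose by 0.59 beside 1.99, SLC7A1 by 0.67 beside 1.64, PSAT1 by 0.84 beside 1.64, and PHGDH by 0.27 beside 1.40. The value of PHGDH no longer passed the adjusted p without AX-0085 replicate 2 (0.08478) or without replicate 2 of both agents (0.06399). The adjusted p alone was passed by 8 of the 9 genes, all higher, and by 34.7% of all genes, 17.3% as higher and 17.4% as lower. The median was 0.59 over the 9 genes and -0.01 over all.

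The interaction term of the model tests whether the change with AX-0085 differs between cells with and without IFN-γ, and equals the AX-0085 change with IFN-γ minus that without. It was called in 2 of the 9 genes, both negative, where 12.1% of all genes were called positive and 6.46% negative. For PHGDH it was -1.13 (SE 0.10, edgeR, adjusted p = 1.202e-06), since the gene rose with AX-0085 in both settings but by 1.46 without and 0.33 with IFN-γ. For MTHFD2 it was -1.40 (SE 0.08, edgeR, adjusted p = 2.747e-08), with a rise of 0.59 without and a fall of 0.80 with IFN-γ. SLC7A1 had the same change of direction, from 0.31 to -0.66, with an interaction of -0.97 (SE 0.08, edgeR, adjusted p = 5.873e-07). The adjusted p alone was also passed by PSAT1 (-0.79), PSPH (-0.43) and SHMT2 (-0.32), the last one not with scaling by library size alone (-0.20, edgeR, adjusted p = 0.06441). Over all genes 50.3% passed it, 26.7% as positive and 23.6% as negative. For SLC7A5 the interaction was 0.08 with a 95% interval from -0.16 to 0.31, and for SLC3A2 -0.06 with an interval from -0.33 to 0.20. For SLC7A11 it was -0.38 (edgeR, adjusted p = 0.06504), which passed in 4 of its 15 alternative settings and was -0.60 without IFN-γ replicate 1. The median was -0.43 over the 9 genes and 0.05 over all. These comparisons share the untreated, AX-0085 and IFN-γ libraries among them and are not independent of each other.

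**Figure D3:**
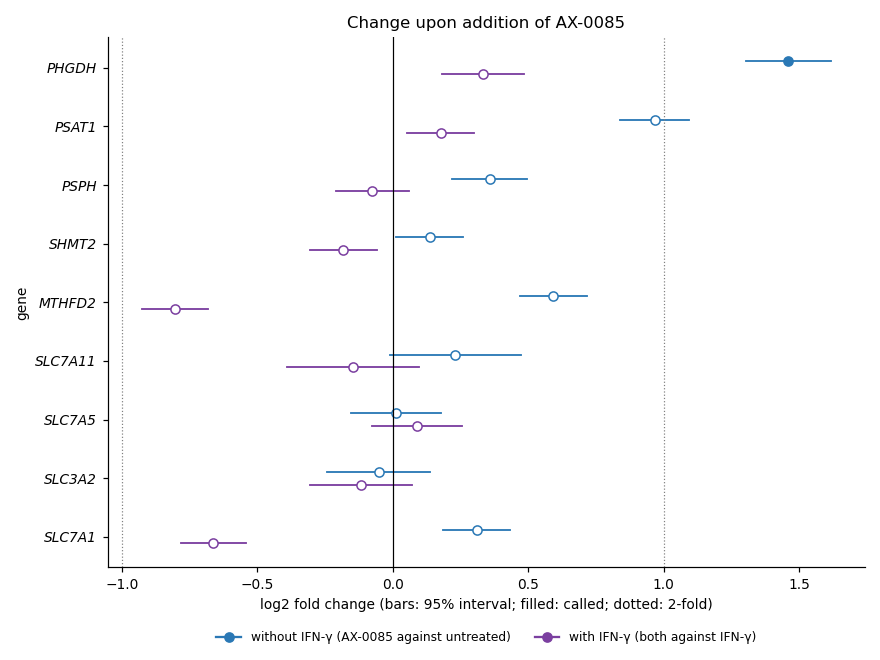
Log2 fold change upon AX-0085 for the 9 measured genes, without IFN-γ (AX-0085 against untreated) and with IFN-γ (both against IFN-γ). Bars are 95% intervals from the edgeR fit, filled points passed both thresholds, and dotted lines mark 2-fold. MTHFD2 and SLC7A1 lie right of 0 without IFN-γ and left of 0 with it, PHGDH moves from 1.46 to 0.33, and the points of SLC7A5 and SLC3A2 stay near 0 in both settings.

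Set side by side over the 3 changes against untreated cells (IFN-γ, AX-0085, both), the genes were compared by the Euclidean distance of their log2 changes, a description over 3 contrasts that share the untreated libraries. PHGDH and PSAT1 were nearest to each other, at a distance of 0.55, and MTHFD2 and SLC7A1 were a pair at 0.50. SLC7A5 was the nearest member of PSPH (0.38), SLC3A2 (0.45) and SHMT2 (0.50). SLC7A11 stood farthest, 0.76 from SHMT2. Among 10122 other genes, those whose mean log2 CPM reached 2, CBS, which condenses serine with homocysteine, lay 0.16 from PHGDH, with log2 changes of 1.51, 1.57 and 1.74 beside 1.40, 1.46 and 1.73. Only ENSG00000274276 was nearer to PHGDH (0.13), and since GENCODE 44 marks it as an artifactual duplicate of CBS, reads of these 2 could be divided between them. PYCR1, the mitochondrial enzyme of the last step of proline synthesis, was the second nearest to SLC7A1 at 0.09 (1.62, 0.22 and 0.99 beside 1.64, 0.31 and 0.98), although 29.7% of its exon bases lie in exons of another gene. GARS1, the glycyl-tRNA synthetase, was among the 5 nearest to MTHFD2 at 0.17. These neighbours were computed for every measured gene after ASNS had been seen to lack counts.

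ATF4 and DDIT3 (CHOP), transcription factors of the stress response in which most of these genes take part, were measured in the same libraries. ATF4 had 364 and 383 CPM in the untreated pair of libraries, 796 and 758 under AX-0085, 915 and 814 under IFN-γ and 680 and 674 under the combination. The 3 treated groups were all above untreated cells, and the group with both agents was the lowest of these. ATF4 RNA rose by a log2 change of 1.21 (SE 0.07) with IFN-γ (edgeR, adjusted p = 4.952e-09) and by 1.06 with AX-0085 alone (edgeR, adjusted p = 5.922e-08), and fell by 0.35 on addition of AX-0085 to IFN-γ (edgeR, adjusted p = 0.0004916). ATF4 is controlled largely at translation, so its RNA is not a measure of its activity. DDIT3 had between 11 and 126 counts in a library and shares 39.6% of its exon bases with another gene. Its level was 0.629 and 0.448 CPM in the untreated pair of libraries, 1.16 and 1.05 under AX-0085, 6.23 and 5.07 under IFN-γ and 2.24 and 3.33 under the combination, and it rose by 3.35 with IFN-γ (SE 0.27, edgeR, adjusted p = 1.317e-07) and fell by 1.04 when AX-0085 was added (SE 0.20, edgeR, adjusted p = 0.0005254). The part of either factor in the values above was not tested.

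Of 14 other genes of one-carbon and glycine metabolism 11 could be tested, and with IFN-γ 1 was called higher and 4 lower, with a median log2 change of -0.68 beside -0.06 over all genes. Among all genes tested, 10.3% were called higher and 17.2% lower with IFN-γ. SHMT1, the cytosolic counterpart of SHMT2, fell by 1.55 with IFN-γ (SE 0.07, edgeR, adjusted p = 5.317e-10), from 102 and 111 to 37.3 and 35.1 CPM, and rose by 0.98 when AX-0085 was added (edgeR, adjusted p = 5.749e-08). On addition of AX-0085, 1 gene of the list was called higher and 0 lower, with a median of -0.04 beside 0.03 over all genes. Among all genes tested, 16.5% were called higher and 8.28% lower on that addition. The list gene called higher there was ALDH1L1, which was also called lower with IFN-γ. It had 3 and 6 counts in the IFN-γ libraries, so both of its calls rest on few counts.

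Of 18 genes for the synthesis of other amino acids 16 were tested. With IFN-γ 6 were called higher and 1 lower, with a median log2 change of 0.60. Among all genes tested, 10.3% were called higher and 17.2% lower, with a median of -0.06. GPT2, the mitochondrial alanine aminotransferase, rose by 2.03 (SE 0.07, edgeR, adjusted p = 2.8e-11), from 34.2 and 36.9 to 147 and 144 CPM. BCAT1, the cytosolic branched-chain aminotransferase, rose by 1.91, and OAT, the ornithine aminotransferase, fell by 1.67. On addition of AX-0085 to IFN-γ, 3 were called higher and 2 lower, with a median of -0.14. The higher calls include GPT, which had 0 and 2 counts in the IFN-γ libraries. Among all genes, 16.5% were called higher and 8.28% lower, with a median of 0.03. ASS1, which joins citrulline and aspartate on the way to arginine, had 15.4 and 15.8 CPM in the untreated pair of libraries, 63.6 and 61.7 under AX-0085, 32.6 and 31.9 under IFN-γ and 153 and 148 under the combination. It rose by 2.23 on addition of AX-0085 to IFN-γ (SE 0.07, edgeR, adjusted p = 1.529e-11), and its interaction was 0.22 (edgeR, adjusted p = 0.07239). CTH, which makes cysteine from cystathionine, rose by 1.43 on addition of AX-0085, while GOT1, the cytosolic aspartate aminotransferase, fell by 1.23.

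Of 28 other amino acid transporters 19 were tested, 7 of them called higher and 3 lower with IFN-γ, with a median log2 change of 0.24. Some of these calls rest on few counts. SLC1A1, called lower with IFN-γ and higher on addition of AX-0085, had 0 and 1 counts in the IFN-γ libraries. SLC16A10, called lower, had 0 and 9 there. SLC38A5, called higher, had 13 and 4 there against 3 and 3 in untreated cells. Among all genes tested, 10.3% were called higher and 17.2% lower, with a median of -0.06. SLC1A5, the glutamine transporter ASCT2, stood at 160 and 168 CPM in the untreated pair of libraries, 304 and 294 under AX-0085, 625 and 568 under IFN-γ and 448 and 456 under the combination. Of its exon bases, 23.8% lie in exons of another gene. It rose by 1.86 with IFN-γ (SE 0.06, edgeR, adjusted p = 4.253e-11). SLC6A9, the glycine transporter GLYT1, rose by 2.07. SLC7A7, which pairs with SLC3A2 as SLC7A5 and SLC7A11 do and exports cationic amino acids, had 9.99 and 11.9 CPM in the untreated pair of libraries, 32.3 and 33.5 under AX-0085, 2.43 and 1.69 under IFN-γ and 38.7 and 38.5 under the combination. It fell by 2.43 with IFN-γ (SE 0.16, edgeR, adjusted p = 1.504e-08) and rose by 4.26 when AX-0085 was added (SE 0.14, edgeR, adjusted p = 3.347e-11). On that addition 3 transporters were called higher and 5 lower, with a median of -0.10, among them SLC38A10 (1.01), SLC6A6, the taurine transporter (-1.39), and SLC36A4 (-1.20). Among all genes, 16.5% were called higher and 8.28% lower, with a median of 0.03.

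Of 6 genes of the metabolism of glutathione, which is built from the cysteine that cystine uptake supplies, 5 were tested, and 1 was called with IFN-γ, with a median of 0.34. It was CHAC1, which degrades glutathione and is itself an ATF4 target, with 4.83 and 5.50 CPM in the untreated pair of libraries, 33.8 and 29.8 under AX-0085, 94.3 and 83.4 under IFN-γ and 65.7 and 68.7 under the combination. CHAC1 rose by 4.11 with IFN-γ (SE 0.11, edgeR, adjusted p = 4.368e-12) and fell by 0.40 when AX-0085 was added (edgeR, adjusted p = 0.001037). On that addition 0 of the 5 were called, with a median of -0.24. Among all genes, 10.3% were called higher and 17.2% lower with IFN-γ, with a median of -0.06. On addition of AX-0085 these shares were 16.5% and 8.28%, with a median of 0.03.

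**Figure D4:**
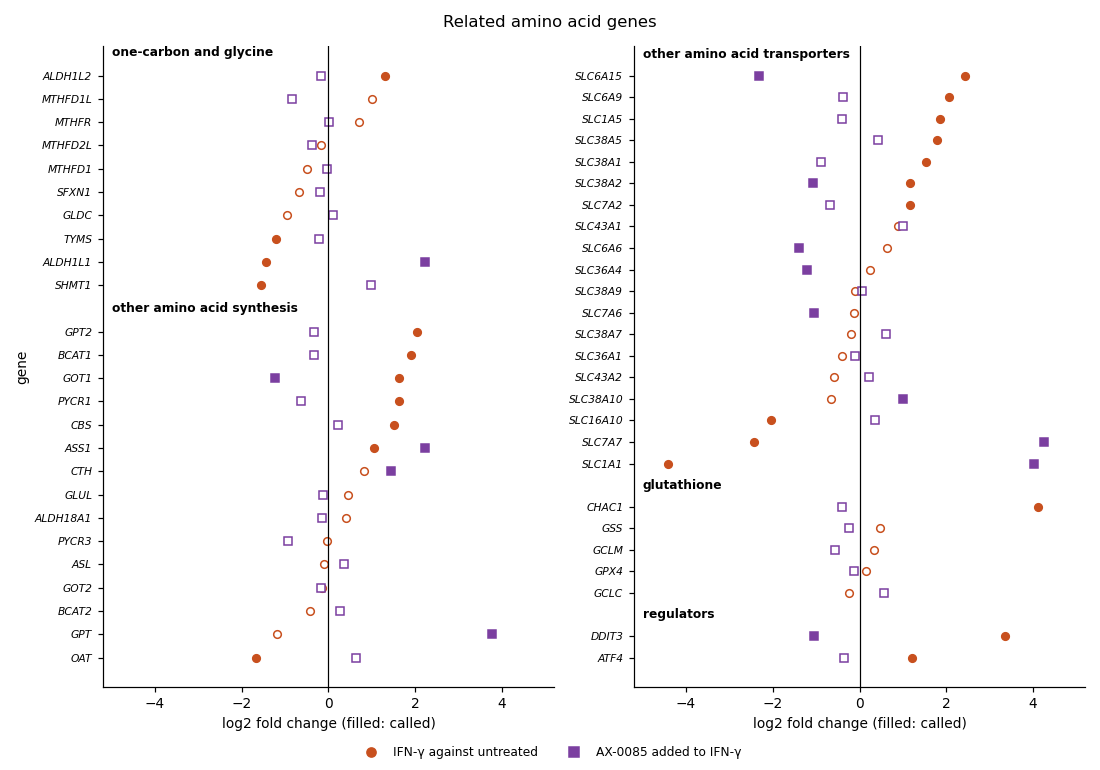
Log2 fold changes of most of the related amino acid genes tested (rows, grouped by list) with IFN-γ against untreated cells (circles) and on addition of AX-0085 to IFN-γ (squares), filled where both thresholds were passed. CHAC1 has the highest circle at 4.11, SLC7A7 lies at -2.43 and 4.26, and the points of SLC1A1 and GPT rest on at most 2 counts in the IFN-γ libraries, so that their size is not a measured fold.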

How the data were processed

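RNA of A549 cells was sequenced as stranded mRNA libraries, 2 per treatment group. Per the labels, reads were trimmed with Trim Galore 0.6.7, mapped to GRCh38 with STAR 2.7.9a and counted with featureCounts. The authors deposited raw counts per gene without normalization. The annotation release, the strand setting and the handling of reads shared by several places or genes are not given in the sources used here, so overlapping genes and the 18 annotated pseudogene copies of the genes studied (at most 5 counts in a library) could share reads. From the counts, genes were filtered with filterByExpr of edgeR 4.0.16, scaled with TMM factors (0.916 to 1.04) and tested with the quasi-likelihood test in R 4.3.3, all 8 libraries in 1 model of 4 groups, with Benjamini-Hochberg adjustment over all 15066 genes. The common biological coefficient of variation was 0.0609. CPM values use TMM-scaled library sizes. Exact permutation of 2 against 2 libraries gives no p below 0.333 and was not used. Positions, exon lengths and overlaps come from GENCODE 44, which named 60463 of the identifiers. The procedure was tested on simulated data for IFN-γ against untreated with 15066 genes, of which 200 were changed. Of these 100% were called, with 2 false calls. The median estimate was 2.01 for changes planted at a log2 value of 2. How changes near the 2-fold limit are called was not read from this simulation.

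The genes and gene lists were chosen with earlier results of these data known, and the counts of list members are descriptions without a test. Named genes are all 10 genes studied, and of each related list the 2 called genes with the largest rise and the 2 with the largest fall (mean log2 CPM reaching 2). Also named are ATF4, DDIT3, genes that check the labels, genes whose calls rest on few counts, and nearest neighbours by log2 changes. A few genes that this rule or the lists hold are counted but not reported here by name. The 16 alternatives per comparison (15 for the interaction, which needs all groups) were DESeq2 1.42.0 and its size factors, library size alone, 2 other filters, the adjusted p alone, a fit of only the compared groups, a block for the replicate number, and each library left out. The replicate numbers come from the labels. Libraries that share a number deviated from their group means with correlations, across genes, from -0.074 to 0.044 in 6 group pairs, so the numbers were not taken to pair the libraries.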

Additional observations from a re-analysis of the deposited data

Results flagged for a closer look

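The change with AX-0085 differed between cells with and without IFN-γ by the interaction test of edgeR for 6 of the 9 measured genes, all negative, and for both transcription factors, where 50.3% of all genes passed the adjusted p and 23.6% passed it as negative. The AX-0085 change with IFN-γ minus that without was -1.40 for MTHFD2, -1.13 for PHGDH, -0.97 for SLC7A1, -0.79 for PSAT1, -0.43 for PSPH and -0.32 for SHMT2 on the log2 scale. For ATF4 it was -1.41 (standard error 0.10, adjusted p = 1.309e-07) and for DDIT3 it was -2.05 (standard error 0.41, adjusted p = 0.0009999), with 11 to 126 counts behind the latter in a library. In MTHFD2, SLC7A1, ATF4 and DDIT3 the changes with and without IFN-γ also had opposite directions, and each passed the adjusted p. What sets the difference was not tested.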

How the results depend on the processing

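Genes called in a comparison kept their direction under all 16 alternatives (15 for the interaction). With the adjusted p alone, 8 genes passed with IFN-γ, 5 on addition of AX-0085, 5 with AX-0085 alone, 8 for both against AX-0085, 8 for both against untreated and 6 in the interaction, since the 2-fold limit was dropped. The shares of all genes that passed it were, in that order, 68.1%, 66.5%, 53.3%, 34.7%, 56.9% and 50.3%. With the replicate block the numbers called were 5, 0, 1, 1, 4 and 2, as without the block. The block moved the adjusted p of SLC7A11 for both against AX-0085 from 0.05881 to 0.04527. With each library left out, calls numbered 5 to 6 with IFN-γ, 0 on addition of AX-0085, 1 with AX-0085 alone, 1 for both against AX-0085, 4 to 5 for both against untreated and 2 to 3 in the interaction. PSPH passed 2-fold with IFN-γ by DESeq2 (1.03), with its size factors (1.03), with only the groups compared (1.02) and without untreated replicate 2 (1.02), IFN-γ replicate 2 (1.05) or replicate 1 of both (1.03). SLC7A1 passed it in the interaction by DESeq2 (-1.01), with its size factors (-1.01) and without untreated replicate 1 (-1.0008), IFN-γ replicate 1 (-1.02) or replicate 2 of both (-1.01), and for both against untreated without untreated replicate 1 (1.03), IFN-γ replicate 2 (1.02) or replicate 1 of both (1.05). Scaling by library size alone moved the median of all genes by -0.12 with IFN-γ, 0.12 on addition of AX-0085 and 0.12 in the interaction. Changes that turned direction were all short of the threshold in the reported fit. Under library size alone these were SLC7A11 with IFN-γ (-0.0295), PSPH (0.0454) and SLC3A2 (0.0067) on addition of AX-0085, and SLC3A2 in the interaction (0.0525). With each library left out, SLC7A11 ranged from -0.1306 to 0.306 with IFN-γ, from -0.3695 to 0.1063 on addition of AX-0085 and from -0.1316 to 0.0474 for both against untreated. In the same way SLC7A5 ranged from -0.0417 to 0.0827 and SLC3A2 from -0.1463 to 0.0508 with AX-0085 alone, and SLC3A2 from -0.1719 to 0.0279 in the interaction. The cause was not tested. With 2 libraries a group, changes of this size could not be told from the spread between libraries.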
